A study of Homo sapiens with 12 samples.

Results

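The Kruppel-like factor (KLF) genes encode zinc-finger transcription factors, and 10 of them were followed by their gene symbols in HCT116, a human colorectal carcinoma cell line: KLF2, KLF3, KLF4, KLF5, KLF6, KLF9, KLF10, KLF11, KLF13 and KLF16. They are 10 of the 56634 gene rows in the count table, and all 10 passed the filter on low counts, as did 13084 genes in all. The cells had been given tumour necrosis factor alpha (TNF), an inflammatory cytokine whose receptor signals to NF-kB, Senexin B, an inhibitor of the Mediator kinases CDK8 and CDK19, both or neither. There were 4 groups of 3 biological replicates, all of the same cell line and all taken at 3 hours. The TNF plus Senexin B cells had 1 µM inhibitor for 1 hour and then 10 ng/mL TNF for 2 hours. In the TNF cells 0.1% DMSO took the place of the inhibitor. The Senexin B cells received 1 µM inhibitor without TNF for 3 hours, and the control cells 0.1% DMSO alone. The comparisons ask what TNF did without and with inhibition of the Mediator kinases, and what the inhibitor did without and with TNF.

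KLF proteins bind GC-rich and CACCC sequences in promoters through zinc fingers at their carboxy terminus, and differ in the partners that the rest of the protein recruits. KLF2, KLF4, KLF5 and KLF6 are mostly known as activators, KLF3 as a repressor that binds CtBP, and KLF9, KLF10, KLF11, KLF13 and KLF16 as repressors that bind SIN3A. In the intestine, KLF5 is known from the dividing cells of the crypt and KLF4 from differentiated cells. Several KLF genes are early response genes, which change within hours of a signal, and Mediator, the complex that CDK8 and CDK19 act on, links transcription factors to RNA polymerase II.

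The 12 libraries held 5835226 to 9281176 counts, with TNF replicate 1 the shallowest, and the common biological coefficient of variation was 3.62%. Replicates of a group differed by more than sampling noise. The deviation of a library from its group mean followed transcript GC content most in TNF replicate 1 (Spearman rho -0.62 across genes). TNF replicates 2 and 3 went in the other direction (rho 0.44 and 0.4). The deviations of a group's 3 libraries sum to 0 for each gene, so these opposite trends are not separate observations. The trend matters for the GC-rich members KLF2 and KLF16. Of 11 markers of colon epithelium, 7 reached 1 CPM in at least 1 library, EPCAM and KRT8 among them, and 6 passed the low-count filter. KRT20 averaged only 0.58 to 0.91 CPM by group and LGALS4 had at most 2 counts. CDX1, VIL1 and CEACAM5 stood at 0 counts in every library. Markers of blood and endothelium were scarce. The 7 blood markers summed to at most 0.943 CPM in a library and HBB was at 0, and the 7 endothelial markers to at most 2.08 CPM with ERG at 0. The 7 fibroblast markers summed to at most 11.2 CPM, and of these COL1A1 alone reached 1 CPM. COL1A1 averaged 9.27 to 10.3 CPM by group (43 to 90 counts in a library), while DCN, LUM and THY1 were at 0. All 8 genes of a check list of NF-kB targets, such as NFKBIA, were higher with TNF than in control cells. Each passed at an edgeR adjusted p under 0.05, where 5.81% of all genes tested were called higher. The check list was chosen with earlier results of these data known.

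With TNF, 5 of the 10 KLF genes rose (KLF3, KLF4, KLF5, KLF6 and KLF10) and 3 fell (KLF2, KLF13 and KLF16), against control cells (edgeR's quasi-likelihood test, Benjamini-Hochberg adjusted p under 0.05). Of all genes tested, 10.0% were called in this comparison, 5.81% higher and 4.2% lower. The 10 genes, and the other gene lists below, were chosen with earlier results of these data known. Their counts beside shares of all genes therefore do not measure an enrichment of the family or of a list. With Senexin B alone, KLF4 and KLF5 rose and KLF2, KLF10 and KLF13 fell, beside 3.04% of all genes called, 1.53% higher and 1.51% lower. The largest change was that of KLF2, which with both agents was at 0.238 of its control level. The median log2 fold change of the 10 genes with TNF was 0.26, against a median of -0.01 over all genes, and with Senexin B alone it was -0.01, against 0.00 over all genes. In RNA from whole cultures, fewer cells of a kind and less RNA per cell cannot be told apart.

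Levels of different genes were set side by side as read counts scaled to library size per kb of exon (CPM per kb). The length is the union of annotated exons, so this scale does not allow for which transcripts were present or for GC content. On it, control cells held most KLF10, with 26.4 ± 1.01 (SD, n = 3, as for all group means below). KLF5 followed at 19.4 ± 1.6, KLF16 at 18.5 ± 1.52 and KLF6 at 16.2 ± 1.1 CPM per kb. KLF2, KLF3 and KLF13 lay between 8.42 and 9.97 CPM per kb, KLF4 at 5.13, KLF11 at 1.73 and KLF9 at 0.81. The genes for KLF2 and KLF16 lie on chromosome 19, those for KLF4 and KLF9 on chromosome 9, and those for KLF3, KLF5, KLF6, KLF11 and KLF13 on chromosomes 4, 13, 10, 2 and 15 in that order, and GENCODE 29 lists all 10 as protein-coding. In the order of levels the libraries of KLF5 and KLF16, of KLF16 and KLF6, of KLF2 and KLF3, and of KLF3 and KLF13 overlapped, so these neighbours did not differ beyond their spread. In TNF plus Senexin B cells the order was led by KLF6, at 31.7 ± 1.17 CPM per kb, and KLF2 stood below KLF13, at 2.38 ± 0.39. Summed over the 10 genes, the level was 140.6 ± 1.78 CPM per kb in TNF plus Senexin B cells, 144.2 ± 3.31 in TNF cells, 112.7 ± 3.19 in Senexin B cells and 115.4 ± 4.73 in control cells.

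**Figure D1:**
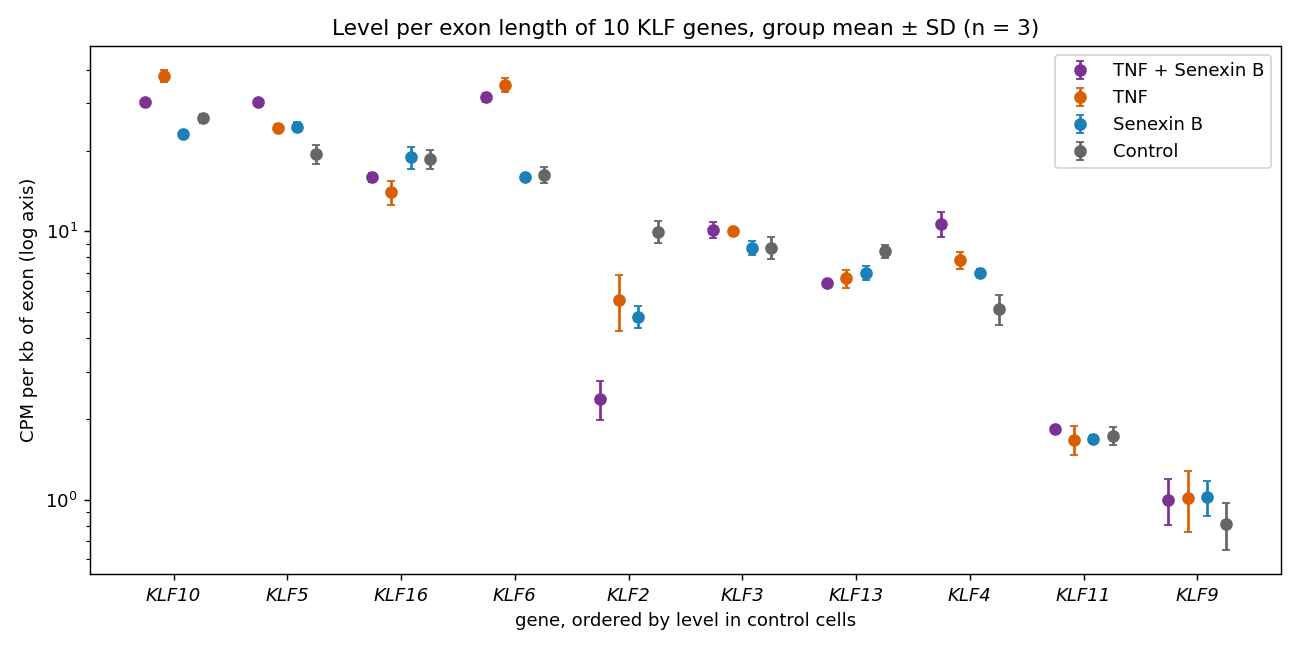
Mean level of each of the 10 KLF genes in CPM per kb of exon (log axis) by group, with bars for the SD of 3 libraries, ordered by level in control cells. KLF10 is highest and KLF9 lowest in control cells, and the spread between groups is widest for KLF2, from 2.38 in TNF plus Senexin B cells to 9.97 in control cells.

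The make-up of this sum differed between the groups. KLF6 took 22.5% of it in TNF plus Senexin B cells and 24.3% in TNF cells, but 14.2% in Senexin B cells and 14.1% in control cells. KLF5 took 21.5% with both agents and 21.8% with Senexin B, against 16.9% with TNF and 16.9% in control cells. KLF2 took 1.69% with both agents, 3.85% with TNF, 4.27% with Senexin B and 8.62% in control cells.

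The stretches before the start sites of KLF2, KLF4 and KLF6 are shown because these are the genes with the largest decrease and the largest increases. The sequences are RefSeq's (GRCh38.p14), taken from the 250 bases before each start, 5′ to 3′ on the gene's strand. KLF2 is on chr19:16324576-16324816 (plus strand), KLF4 on chr9:107489770-107490019 (minus strand) and KLF6 on chr10:3785282-3785459 (minus strand). The last 9 bases of the KLF2 window and the last 72 of the KLF6 window are exon in GENCODE 29 and are left out, and the KLF4 window lies in an intron of a longer annotated transcript of that gene. Capitals mark GC boxes (GGGCGG, or CCGCCC on the other strand), the kind of sequence that KLF and SP proteins bind, and in KLF2 also the MEF2 box CTAAATTTAG.
KLF2: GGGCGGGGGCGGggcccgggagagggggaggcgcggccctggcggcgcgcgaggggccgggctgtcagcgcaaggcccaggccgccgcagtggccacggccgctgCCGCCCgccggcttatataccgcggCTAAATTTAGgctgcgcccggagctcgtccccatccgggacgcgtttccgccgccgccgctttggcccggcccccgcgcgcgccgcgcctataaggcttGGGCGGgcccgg
KLF4: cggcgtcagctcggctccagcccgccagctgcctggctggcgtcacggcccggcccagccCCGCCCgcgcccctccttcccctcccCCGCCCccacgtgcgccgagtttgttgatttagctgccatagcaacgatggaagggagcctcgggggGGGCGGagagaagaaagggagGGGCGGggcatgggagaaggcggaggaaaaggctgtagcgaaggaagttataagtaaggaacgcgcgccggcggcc
KLF6: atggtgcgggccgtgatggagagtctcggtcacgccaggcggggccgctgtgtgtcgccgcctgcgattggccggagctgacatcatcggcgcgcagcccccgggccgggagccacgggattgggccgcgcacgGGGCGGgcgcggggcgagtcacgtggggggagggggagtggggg

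The MEF2 box of KLF2, from 120 to 111 bases before the start, is the type of element through which ERK5 and MEF2 proteins are known to drive KLF2 in endothelial cells. A match to its letters, CTA, then 4 letters A or T, then TAG, was found in 0.515% of the 35116 RefSeq start regions searched on both strands. GC boxes numbered 4 in the KLF2 window, 4 in that of KLF4 and 2 in that of KLF6, and 42.6% of all start regions held at least 1. The 8 KLF genes with a start region in the table, 10 regions in all, held no match to the NF-kB consensus (8.04% of all regions), the CArG box of SRF (1.16%), the AP-1 site TGANTCA with C or G at N (4.2%) or the EGR site GCGTGGGCG (0.72%). A cAMP response element, TGACGTCA, occurred before 1 of the 2 starts of KLF11, against 1.65% of all regions. These matches describe letters in a short window, and no binding was measured.

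KLF6, known as an injury-response gene and a tumour suppressor in epithelia, had the largest increase with TNF. Its levels were 190.6, 202.6 and 189.8 CPM (the count scaled to library size) in TNF plus Senexin B libraries and 225.8, 219.8 and 200.9 CPM in TNF libraries. They were 97.7, 98.5 and 97.5 CPM in Senexin B libraries and 93.0, 106.4 and 99.7 CPM in control libraries. Every library with TNF lay above every library without it, and the Senexin B and control libraries overlapped. The log2 fold change with TNF was 1.11 ± 0.05 (SE, adjusted p = 7.32e-26), a 2.15-fold increase, and with TNF in the presence of Senexin B it was 0.99 ± 0.05 (edgeR adjusted p = 1.1e-23). Senexin B alone gave -0.03 (95% interval -0.14 to 0.08), which did not pass the test. Between TNF plus Senexin B and TNF cells the libraries overlapped and the log2 difference of -0.15 ± 0.05 missed the threshold (edgeR adjusted p = 0.0571). Without TNF replicate 3, the lowest of its group, the value was -0.20 and passed (adjusted p = 0.0165), and with GC-corrected offsets on all 12 libraries it was -0.18 and passed (adjusted p = 0.00468).

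KLF4, an activator of epithelial differentiation and one of the reprogramming factors, rose with each agent. It stood at 41.1, 34.3 and 41.7 CPM in TNF plus Senexin B libraries and at 26.5, 30.8 and 28.5 CPM in TNF libraries. The Senexin B libraries had 26.5, 25.8 and 24.8 CPM and the control libraries 16.04, 19.9 and 20.3 CPM. No library of 1 group overlapped those of the next group in the order TNF plus Senexin B, TNF, Senexin B, control. The middle step was a narrow one, from 26.53 CPM in the lowest TNF library to 26.48 CPM in the highest Senexin B library. These 2 groups were not tested against each other. TNF raised it by 0.61 ± 0.10 on the log2 scale (edgeR adjusted p = 7.01e-06) and Senexin B by 0.44 ± 0.10 (edgeR adjusted p = 0.00357). With Senexin B in TNF cells it was 0.44 ± 0.09 (edgeR adjusted p = 0.000495), and both agents together gave 1.05 ± 0.09 against control cells, a 2.07-fold increase (edgeR adjusted p = 6.33e-14). The call with Senexin B alone was lost without control replicate 1, the lowest of the control libraries (0.35, adjusted p = 0.0685).

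KLF5, which promotes proliferation of crypt cells, was also highest with both agents and lowest in control cells, at smaller sizes of change. Its level was 116.9, 120.6 and 116.1 CPM with both agents and 98.0, 93.6 and 92.6 CPM with TNF. It was 99.4, 95.1 and 92.3 CPM with Senexin B and 73.3, 71.0 and 82.8 CPM in control cells. The TNF and Senexin B libraries overlapped each other, and both lay between those with both agents and the controls. On the log2 scale KLF5 rose by 0.32 ± 0.06 with TNF (edgeR adjusted p = 4.83e-05) and by 0.33 ± 0.06 with Senexin B (edgeR adjusted p = 5.08e-05). With both agents it was 0.64 ± 0.06 against control cells, a 1.55-fold increase (edgeR adjusted p = 3.61e-14).

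KLF2, best known from quiescent endothelial and T cells, was the activator that fell. It had 5.67, 4.12 and 4.61 CPM in TNF plus Senexin B libraries, from 35 to 47 counts, and 8.15, 12.5 and 12.95 CPM in TNF libraries. Senexin B libraries had 10.3, 10.2 and 8.67 CPM and control libraries 18.1, 21.7 and 20.6 CPM. The libraries with both agents were below all others, the controls above all others, and the TNF and Senexin B libraries overlapped each other. The log2 fold change was -0.81 ± 0.13 with TNF (edgeR adjusted p = 1.49e-06) and -1.06 ± 0.13 with Senexin B (edgeR adjusted p = 9.06e-09). In TNF cells Senexin B changed it by -1.26 ± 0.17 (edgeR adjusted p = 1.8e-07), and both agents together by -2.07 ± 0.16 against control cells (edgeR adjusted p = 8.52e-18). KLF2 transcripts are 66.8% GC, and the lowest TNF value was that of replicate 1, whose deviations followed GC content most. With GC-corrected library offsets the TNF effect was -0.63 (adjusted p = 2.87e-05).

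**Figure D2:**
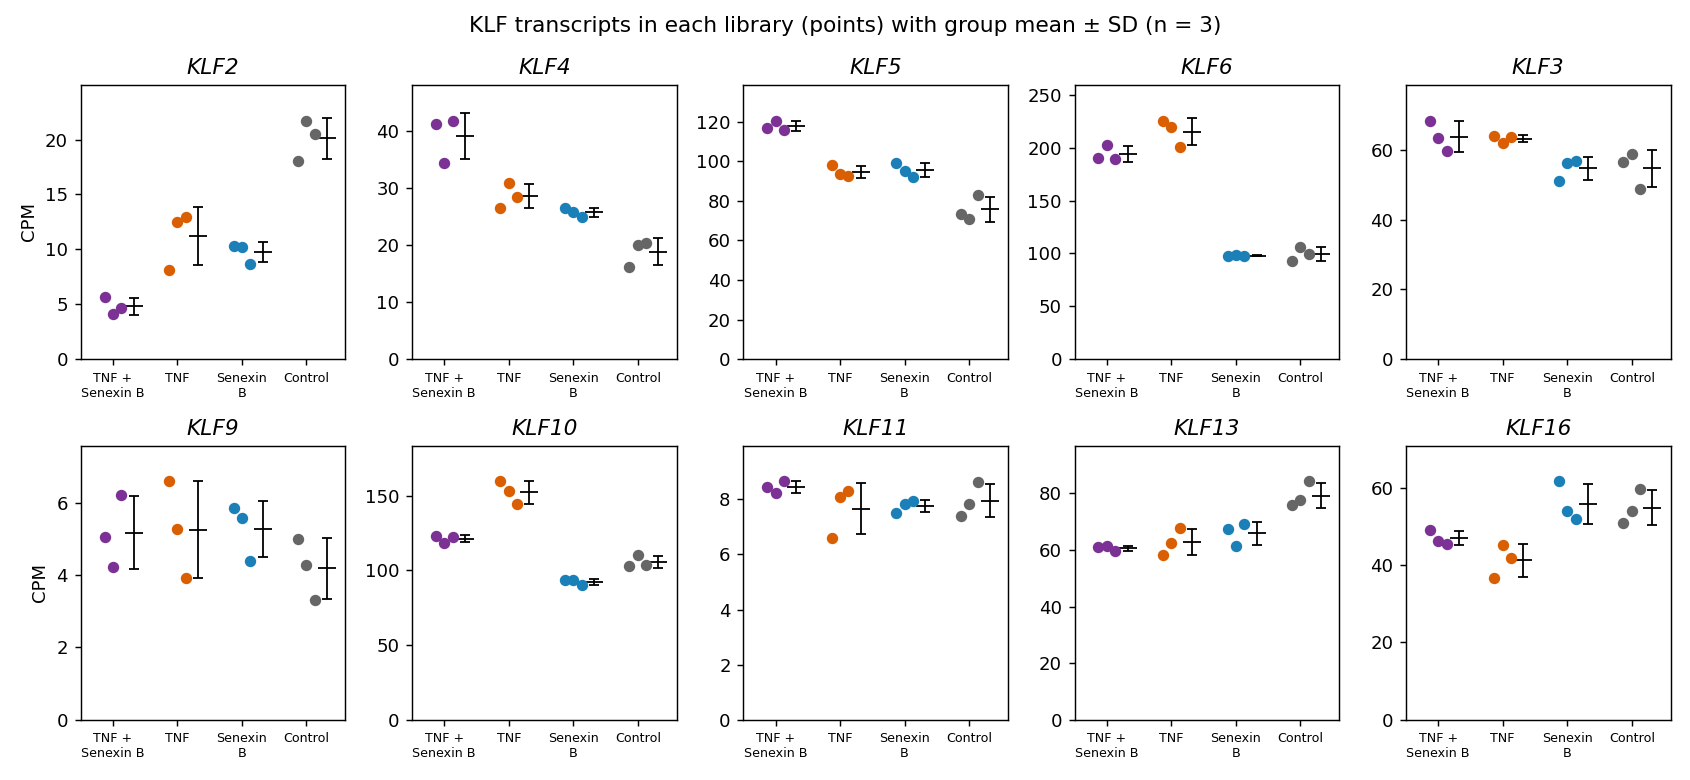
Level of each KLF gene in each of the 12 libraries (points, CPM on a linear axis from 0) with the group mean and SD (n = 3), for the activators and KLF3 above and the SIN3A-binding repressors below. KLF6 separates the libraries with TNF (189.8 to 225.8 CPM) from those without (93.0 to 106.4 CPM), while KLF4 and KLF5 are highest and KLF2 lowest with both agents.

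KLF3, the CtBP-binding repressor, changed by little. It stood at 68.5, 63.4 and 59.7 CPM in TNF plus Senexin B libraries, 64.2, 62.1 and 63.6 CPM in TNF libraries, 51.1, 56.2 and 56.9 CPM in Senexin B libraries and 56.7, 58.9 and 48.8 CPM in control libraries. The libraries with TNF lay above those without, by a narrow margin. The log2 fold change of 0.21 ± 0.07 with TNF passed the test narrowly (edgeR adjusted p = 0.0399), as did 0.22 ± 0.07 with TNF in Senexin B cells (edgeR adjusted p = 0.0324). The call with TNF alone did not hold in DESeq2 (adjusted p = 0.12), nor without any 1 of TNF replicate 1, 2 or 3 (adjusted p from 0.053 to 0.0969) or control replicate 3 (0.13, adjusted p = 0.355). With TNF in Senexin B cells it was lost in DESeq2 (adjusted p = 0.123) and without replicate 1 or 2 of either group (adjusted p from 0.0593 to 0.274). Both agents gave 0.22 ± 0.07 against control (edgeR adjusted p = 0.0191), a call lost in DESeq2 (adjusted p = 0.0733) and without TNF plus Senexin B replicate 1 or 2 or control replicate 3 (adjusted p = 0.166, 0.0538 and 0.255 in that order). Senexin B alone gave 0.00 (95% interval -0.13 to 0.14).

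Among the SIN3A-binding repressors, KLF10, a TGF-beta-inducible early gene, moved in opposite directions with the agents. Its level was 123.1, 118.4 and 122.4 CPM with both agents, 159.5, 153.1 and 144.1 CPM with TNF, 93.4, 93.4 and 90.0 CPM with Senexin B and 103.2, 110.4 and 103.5 CPM in control cells. The 4 groups did not overlap, with TNF highest and Senexin B lowest. On the log2 scale TNF raised it by 0.52 ± 0.05 (edgeR adjusted p = 2.61e-12), and in Senexin B cells by 0.40 ± 0.05 (edgeR adjusted p = 2.63e-08). Senexin B gave -0.32 ± 0.05 in TNF cells (edgeR adjusted p = 4.63e-06) and -0.20 ± 0.05 without TNF (edgeR adjusted p = 0.0203). Without TNF that call was lost when any 1 Senexin B library was left out (adjusted p = 0.0524, 0.0589 and 0.131 for replicates 1, 2 and 3), or control replicate 2 (adjusted p = 0.15). With both agents the level was above control by 0.20 ± 0.05 (edgeR adjusted p = 0.00466).

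KLF13, known from T lymphocytes as an activator of CCL5 as well as a repressor, fell with each agent alone against control. It had 60.9, 61.4 and 59.5 CPM with both agents, 58.3, 62.6 and 67.7 CPM with TNF, 67.3, 61.4 and 69.0 CPM with Senexin B and 75.9, 77.5 and 84.2 CPM in control cells. The 9 treated libraries all lay below the control libraries and overlapped each other between neighbouring groups. The log2 fold change was -0.33 ± 0.06 with TNF (edgeR adjusted p = 0.000101), -0.27 ± 0.06 with Senexin B (edgeR adjusted p = 0.00431) and -0.39 ± 0.06 with both agents (edgeR adjusted p = 2.14e-06). The Senexin B call was lost without Senexin B replicate 2 (-0.22, adjusted p = 0.082) or control replicate 3 (-0.22, adjusted p = 0.0778). In the presence of the other agent neither change passed. TNF in Senexin B cells gave -0.124 ± 0.063 (edgeR adjusted p = 0.347), and Senexin B in TNF cells -0.061 ± 0.065 (edgeR adjusted p = 0.671).

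KLF16, at 71.7% GC the most GC-rich of the 10, had 49.2, 46.3 and 45.5 CPM with both agents and 36.8, 45.3 and 41.8 CPM with TNF. It had 61.6, 54.1 and 51.8 CPM with Senexin B and 50.8, 53.9 and 59.7 CPM in control cells. The libraries with TNF lay below those without it. The log2 fold change with TNF was -0.40 ± 0.08 (edgeR adjusted p = 0.000126), and with Senexin B alone 0.02 (95% interval -0.12 to 0.16). With GC-corrected offsets the TNF effect was -0.14 and no longer passed (adjusted p = 0.287). Without control replicate 1 and TNF replicate 1, the libraries whose GC trend stood lowest in their groups, it was -0.39 (adjusted p = 0.000239). The smaller decreases in TNF plus Senexin B cells, -0.25 ± 0.07 against Senexin B (edgeR adjusted p = 0.0278) and -0.23 ± 0.07 against control (edgeR adjusted p = 0.0341), were both lost with GC-corrected offsets (adjusted p = 0.215 and 0.172) and in DESeq2 (adjusted p = 0.11 in each). The first was also lost without Senexin B replicate 1 or TNF plus Senexin B replicate 2 or 3 (adjusted p from 0.116 to 0.347), and the second without control or TNF plus Senexin B replicate 2 or 3 (adjusted p from 0.0567 to 0.272). An antisense gene, AC012615.3, shares 16.3% of the KLF16 exon bases and is not among the genes counted, so its level is not known. The library kit does not mark strand, so reads of AC012615.3 cannot be told apart from those of KLF16 there. The same holds for 4.2% of the KLF3 exon bases, shared with KLF3-AS1 (0 to 4 counts in a library), and 9.1% of those of KLF11, shared with AC104794.4 (0 to 1 counts).

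**Figure D3:**
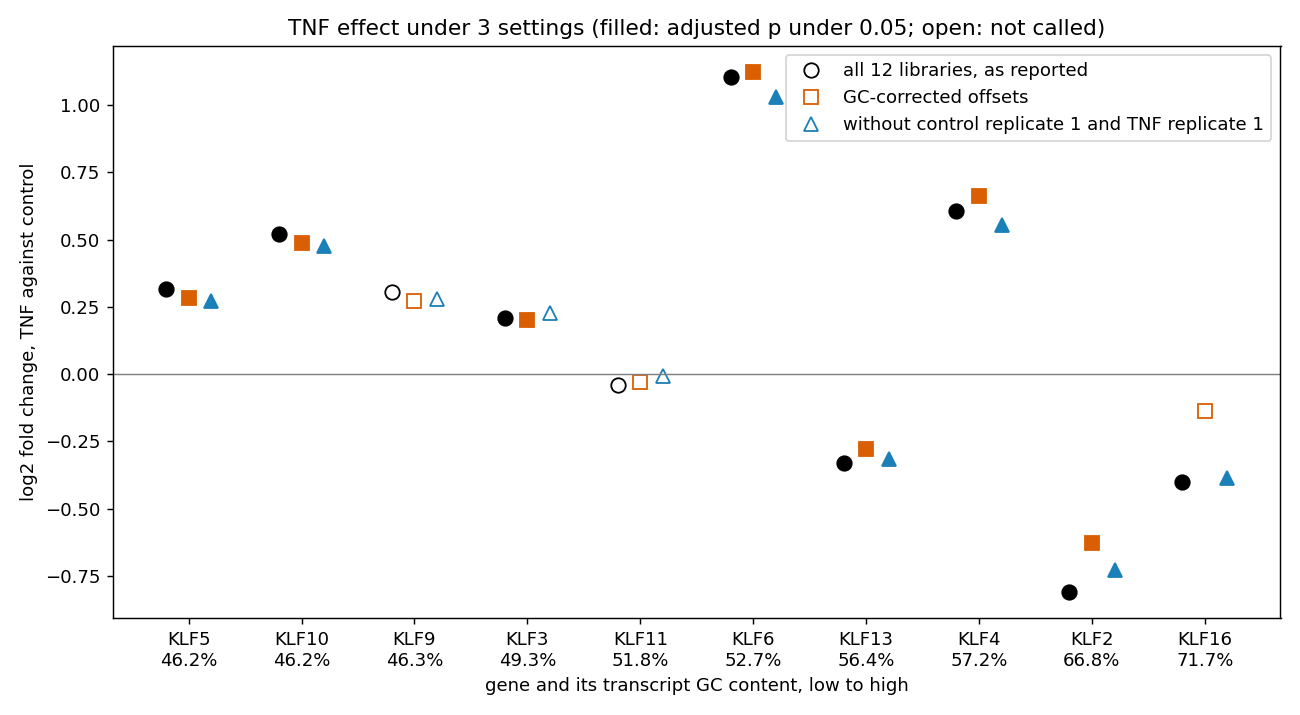
Log2 fold change with TNF against control for the 10 KLF genes, ordered by transcript GC content from 46.2% to 71.7%, in the fit to all 12 libraries, with GC-corrected offsets, and without control replicate 1 and TNF replicate 1. Filled symbols passed the test: KLF16 moves from -0.40 to -0.14 with the GC correction and to -0.39 without the 2 libraries, while KLF6 stays above 1 in each.

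KLF9, a glucocorticoid-responsive gene, and KLF11, a second TGF-beta-inducible member, were the scarcest and passed no test. KLF9 ranged from 3.32 to 6.59 CPM over the 12 libraries (30 to 54 counts), and KLF11 from 6.59 to 8.65 CPM (38 to 78 counts), with overlap between neighbouring groups in the order of levels. The TNF effect was 0.31 for KLF9 (95% interval -0.12 to 0.73) and -0.04 for KLF11 (95% interval -0.34 to 0.26). At this depth the KLF9 interval leaves room for a rise as large as that of KLF3, KLF5, KLF10 or KLF4. The KLF11 interval leaves room for a rise as large as that of KLF3 or a fall as large as that of KLF13.

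**Figure D4:**
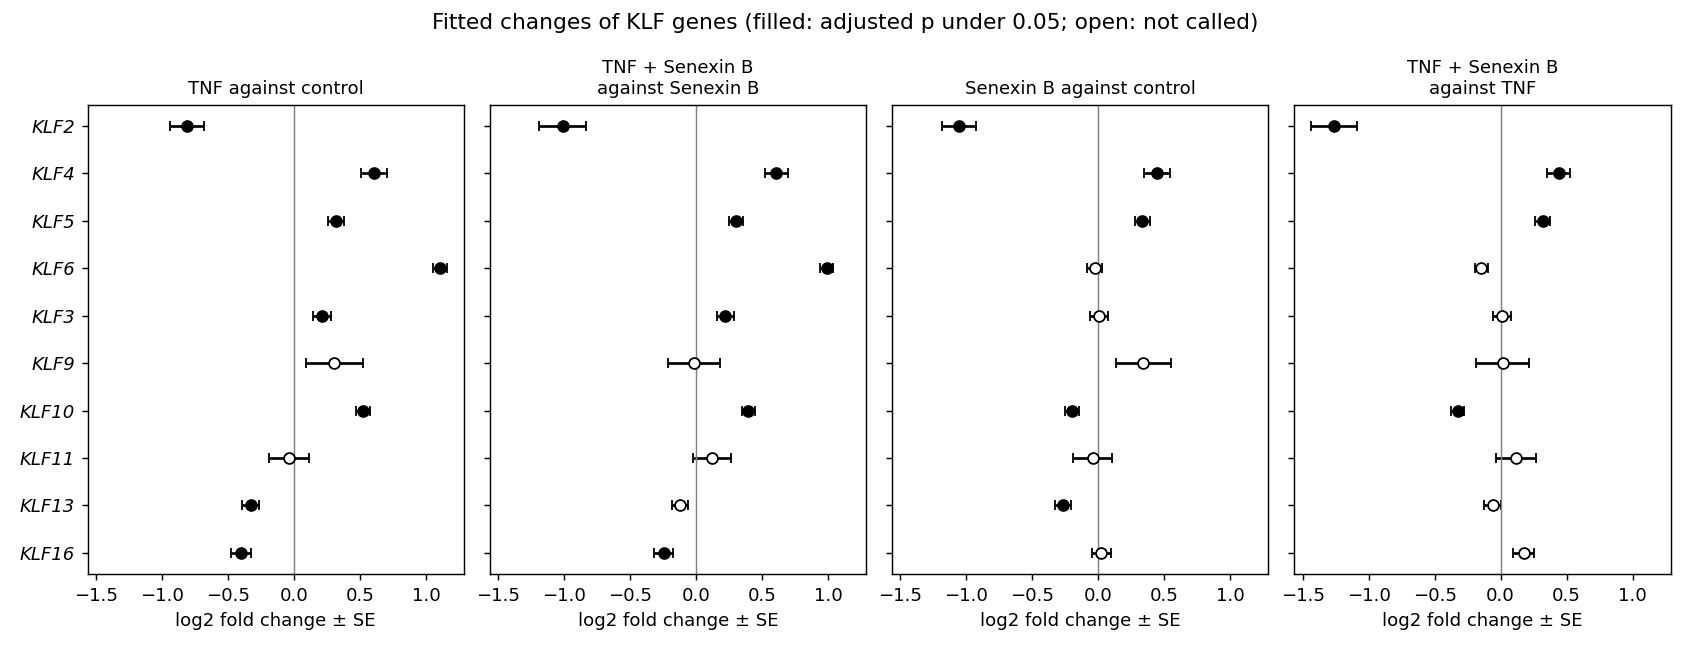
Fitted log2 fold changes (points, with SE bars) of the 10 KLF genes for TNF without and with Senexin B, and for Senexin B without and with TNF. Filled points passed the test. KLF6 is near 1 in both TNF comparisons and near 0 in both Senexin B comparisons, KLF2 is below 0 in each, and KLF4 and KLF5 are above 0 in each.

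In cells given Senexin B, TNF plus Senexin B against Senexin B, KLF3, KLF4, KLF5, KLF6 and KLF10 rose and KLF2 and KLF16 fell, 7 of the 10 genes, beside 5.95% of all genes called, 4.27% higher and 1.68% lower. In cells given TNF, TNF plus Senexin B against TNF, KLF4 and KLF5 rose and KLF2 and KLF10 fell, beside 5.45% of all genes called, 2.9% higher and 2.55% lower. With both agents against control, 5 rose and 3 fell, beside 11.2% of all genes, 6.09% higher and 5.08% lower. TNF in Senexin B cells changed KLF2 by -1.01 ± 0.18 (edgeR adjusted p = 9.33e-06), KLF4 by 0.61 ± 0.09 (edgeR adjusted p = 2.48e-07) and KLF5 by 0.30 ± 0.05 (edgeR adjusted p = 2.46e-05) on the log2 scale. With both agents against control KLF6 was higher by 0.96 ± 0.05 (edgeR adjusted p = 3.9e-23). These comparisons share libraries with each other, so their values are set side by side and not counted as separate evidence. The test of whether the TNF effect differed with the inhibitor called none of the 10 genes, beside 0.0459% of all genes (6 of 13084), 0.0229% higher and 0.0229% lower. By unadjusted p under 0.05 it marked KLF13 in edgeR (difference 0.20 ± 0.09, adjusted p = 0.765), where 6.08% of all genes were so marked, and none of the 10 in DESeq2. The 95% interval of this difference was -0.63 to 0.22 for KLF2, -0.26 to 0.26 for KLF4, -0.17 to 0.14 for KLF5, -0.26 to 0.02 for KLF6 and -0.27 to 0.01 for KLF10. It was -0.18 to 0.20 for KLF3, -0.89 to 0.24 for KLF9 and -0.25 to 0.57 for KLF11. For KLF13 it was 0.03 to 0.38, which leaves out 0, and for KLF16 -0.055 to 0.363.

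For the 3 genes that changed by at least 0.58 on the log2 scale in a single-agent comparison or with Senexin B in TNF cells, the most similar patterns over the 3 treated groups were looked up by the root mean square difference (RMS) of fitted log2 fold changes against control. Nearest to KLF2 was EGR1, the immediate early zinc-finger gene, at an RMS of 0.44, with -1.93 for both agents, -0.17 for TNF and -1.45 for Senexin B. The next were DBP at 0.58 and LFNG at 0.61, so no gene searched lay nearer to KLF2 than 0.44. The search covered tested genes of at least 5 CPM, without clone-based names and many names of noncoding RNAs. Nearest to KLF4 were ARTN (RMS 0.075), NAV3 (0.085) and ERRFI1 (0.087), the last a feedback inhibitor of the EGF receptor. Nearest to KLF6 were SERPINB8 (RMS 0.068), BBC3 (0.08), which encodes the pro-apoptotic protein PUMA, and TRIM15 (0.086).

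Relatives of these genes were looked up in the same 6 comparisons, in which 0.0459% (interaction) to 11.2% (both agents against control) of all genes were called. At such shares few calls would be expected among so few tested genes, so the counts say little about the relatives. Of 8 other KLF genes 3 were tested, KLF7, KLF12 and KLF15, and over the 6 comparisons edgeR called 0 of the 18 values and DESeq2 0, with 0 at an unadjusted p under 0.05 in either. KLF7 averaged 13.7 ± 0.36 CPM in TNF plus Senexin B cells, 12.4 ± 0.68 in TNF cells, 13.5 ± 1.31 in Senexin B cells and 11.9 ± 1.0 in control cells, and KLF15 had 3 to 19 counts in a library. KLF1, KLF8, KLF14, KLF17 and KLF18 had at most 11 counts in a library. Of 9 SP genes, which share the zinc fingers and bind GC boxes, 5 were tested. SP1 averaged 183.0 ± 3.99 CPM with both agents, 175.1 ± 3.48 with TNF, 181.1 ± 6.8 with Senexin B and 178.4 ± 8.02 in control cells. SP4 was called with both agents against control (-0.51 ± 0.11, edgeR adjusted p = 0.000417), the 1 edgeR call among the SP genes in the 6 comparisons.

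Of 15 genes for co-repressors and co-activators of KLF proteins, 1 was called with TNF, where 10.0% of all genes were called: SIN3A (0.14 ± 0.05, edgeR adjusted p = 0.0405). None of the 15 was called with TNF in DESeq2, which marked 2 at an unadjusted p under 0.05. Their median log2 fold change was -0.04, against -0.01 over all genes. With Senexin B 2 of the 15 were called, both lower, beside 1.51% of all genes lower: the acetyltransferase gene CREBBP (-0.35 ± 0.06, edgeR adjusted p = 0.000349) and RCOR1 (-0.24 ± 0.06, edgeR adjusted p = 0.0183), where DESeq2 called 1. Of 10 ubiquitin ligases and deubiquitinases that act on KLF proteins, 4 rose with TNF, beside 5.81% of all genes, with a list median of 0.13 against -0.01 over all genes. These were SMURF2 (0.38 ± 0.04, edgeR adjusted p = 1.04e-10), VHL (0.29 ± 0.06, edgeR adjusted p = 0.000264), SMURF1 (0.24 ± 0.06, edgeR adjusted p = 0.00571) and USP10 (0.15 ± 0.04, edgeR adjusted p = 0.0155). With Senexin B edgeR called 0 of the 10 and DESeq2 0, and each marked 1 at an unadjusted p under 0.05.

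Among 17 tested genes that act upstream of KLF genes, 2 rose and 4 fell with TNF, where 5.81% of all genes were higher and 4.2% lower, with a list median of -0.01 against -0.01 over all genes. SMAD3, which carries the TGF-beta signal that induces KLF10, averaged 373.9 ± 6.22 CPM with both agents, 332.7 ± 4.79 with TNF, 209.3 ± 5.18 with Senexin B and 168.0 ± 0.94 in control cells. Its log2 fold change was 0.99 ± 0.04 with TNF (edgeR adjusted p = 4.94e-28) and 0.32 ± 0.04 with Senexin B (edgeR adjusted p = 1.95e-07). ELK3 rose with TNF, and TCF7L2 and MAPK7, the gene of ERK5 that acts above MEF2 and KLF2, fell (MAPK7 -0.53 ± 0.13, edgeR adjusted p = 0.00269). With Senexin B 3 rose and 1 fell, where 1.53% of all genes were higher and 1.51% lower: SMAD3, SRF (0.32 ± 0.05, edgeR adjusted p = 4.21e-05) and TCF7L2 rose and MAP3K3, the kinase above MAPK7, fell (-0.28 ± 0.08, edgeR adjusted p = 0.0203). DESeq2 called 0 lower in this list with Senexin B, with 1 lower at an unadjusted p under 0.05.

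Of 22 tested genes known as KLF targets, 5 rose and 1 fell with TNF, beside 5.81% and 4.2% of all genes, with a list median of 0.01 against -0.01 over all genes. PLAU, the urokinase gene, had 261.0 ± 5.64 CPM with both agents, 318.8 ± 10.0 with TNF, 45.8 ± 0.31 with Senexin B and 47.4 ± 1.51 in control cells, and its receptor gene PLAUR rose with TNF by 1.23 ± 0.08 (edgeR adjusted p = 3.35e-19). With Senexin B 3 rose and 1 fell, beside 1.53% and 1.51% of all genes. CDKN1A, the cell cycle inhibitor gene that KLF4 and KLF6 are known to activate, fell by 0.77 ± 0.05 with Senexin B (edgeR adjusted p = 3.11e-18), to 89.5 ± 0.70 CPM in Senexin B cells, against 152.4 ± 2.92 CPM in control cells. MYC rose with each agent, to 705.8 ± 5.33 CPM with both, 556.1 ± 27.3 with TNF and 562.8 ± 6.98 with Senexin B, against 412.0 ± 16.8 CPM in control cells. Many of these genes also answer to other factors, and no KLF protein was measured.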

How the data were processed

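Libraries of HCT116 RNA were made by an unstranded TruSeq RNA kit, per the labels' protocols. The authors deposited raw read counts, whole numbers for each gene symbol in each library. The submitters' processing notes name STAR 2.4, SAMtools 1.2, featureCounts of Subread 1.4.6 and GRCh38; the annotation, strand setting and treatment of multi-mapped reads are not given in the sources used here. From the counts, edgeR 4.0.16 (R 4.3.3) was run with TMM factors, filterByExpr by group and robust quasi-likelihood F-tests on all 12 libraries, 1 coefficient per group. A gene was called at an adjusted p (Benjamini-Hochberg, over all 13084 tested) under 0.05. CPM are scaled by TMM, and CPM per kb divide by the union exon length in GENCODE 29. Standard errors are Wald errors scaled by the quasi-dispersion, and 95% intervals span 1.96 of them. The pipeline was tested on simulated data.

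All 10 members are described. Of each other list, up to 4 called genes with the smallest adjusted p per comparison are named. For members past 0.58 (log2) the 3 genes of at least 5 CPM with the most similar pattern are named, clone-based and many noncoding names left out. The members and lists were chosen with earlier results of these data known. Alternatives were DESeq2 1.42.0, median-of-ratios size factors, no low-count filter, a replicate block, fits to the 2 groups compared, GC-corrected offsets (lowess on transcript GC, known for 12223 genes), and leaving out libraries.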

Additional observations from a re-analysis of the deposited data

How the results depend on the processing

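Over 60 values of the KLF genes (10 genes, 6 comparisons), 32 passed the test, and 23 of these did so in every alternative that gave a p. The other 9 were lost in at least 1 alternative: KLF3 and KLF16 in 3 comparisons each, and KLF4, KLF10 and KLF13 with Senexin B alone. KLF6 in TNF plus Senexin B against TNF was gained, with the replicate block (adjusted p = 0.0354), with GC-corrected offsets (adjusted p = 0.00468) and without TNF replicate 3. No called value changed sign. There were 39 sign changes among estimates with no call. The cause of these shifts was not tested.

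With the replicate number as a block, 8 KLF genes were called with TNF, 5 with Senexin B, 5 in TNF plus Senexin B against TNF, 7 against Senexin B, 8 against control and 0 in the interaction, and 1470, 479, 871, 827, 1580 and 6 of all genes in that order of comparisons. A pairing by number is not established: over 18 pairs with the same number the deviations from group means correlated from -0.034 to 0.156, and 3 pairs were over 0.1. As a hint from the data, the 36 other pairs ranged from -0.152 to 0.087, and for 9 of 12 libraries the best match had its own number.

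DESeq2 called 850 genes with TNF, where edgeR called 1309, and 475 in TNF plus Senexin B against TNF, where edgeR called 713. Its adjusted p was not available for KLF2, KLF9 and KLF11 in that comparison and for KLF9 with Senexin B. Without the low-count filter the interaction had 10 calls in place of 6. Leaving out 1 library gave 7 to 8 KLF genes with TNF, 3 to 4 with Senexin B in place of 5 (3 without Senexin B replicate 2), 4 to 5 in TNF plus Senexin B against TNF, 5 to 7 against Senexin B, 6 to 8 against control and 0 in the interaction. For all genes the ranges were 876 to 1348, 236 to 333, 451 to 815, 583 to 605, 1069 to 1226 and 2 to 9. Depth limits KLF9 and KLF11 most, at 30 to 78 counts in a library. It also limits KLF2 with both agents, at 35 to 47 counts, and in TNF replicate 1, at 47 counts.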

Other observations

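Of 21 tested immediate early genes, the class of early response genes that includes EGR1, 11 rose and 1 fell with TNF (10 higher and 0 lower in DESeq2), beside 5.81% and 4.2% of all genes, with a median log2 fold change of 0.33 against -0.01 over all genes. MAFF rose by 1.47 ± 0.08 (edgeR adjusted p = 2.13e-22), ATF3 by 1.46 ± 0.09 (edgeR adjusted p = 1.96e-21) and JUN by 1.32 ± 0.08 (edgeR adjusted p = 7.95e-22). With Senexin B 3 rose and 6 fell (3 higher and 5 lower in DESeq2), beside 1.53% and 1.51% of all genes, with a median of -0.20 against 0.00 over all genes. JUN (-1.33 ± 0.11, edgeR adjusted p = 4.49e-15), EGR1 (-1.45 ± 0.10, edgeR adjusted p = 7.1e-10) and CSRNP1 (-1.18 ± 0.12, edgeR adjusted p = 5.48e-11) fell, while MYC rose by 0.45 ± 0.04 (edgeR adjusted p = 8.94e-14). In TNF cells Senexin B gave 3 higher and 6 lower, beside 2.9% and 2.55% of all genes, with JUN at -1.35 ± 0.08 (edgeR adjusted p = 9.37e-21). This list was chosen with earlier results of these data known, so its counts and medians do not measure an enrichment.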
